A study of Papio anubis and Macaca fascicularis and Castor canadensis with 48 samples.

Results

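The livers of a large rodent and a small rodent were compared by RNA sequencing of whole tissue. The American beaver (Castor canadensis) gave 2 liver libraries and the Siberian chipmunk (Tamias sibiricus) gave 2, and these 4 were taken from a series of 48 libraries by their labels. The series covers liver, kidney, brain and cerebellum of 8 mammal species, and its title names longevity across species as the subject. All animals of both groups were labelled as male, wild-type young adults, and the labels name no treatment. The beaver organs came from a primate research center, in the same collection as the baboon and long-tailed macaque organs. The chipmunk livers came from an earlier collection, together with the organs of white-footed mouse, American black bear, sugar glider and tube-nosed bat. Beaver and chipmunk therefore differ in collection as well as in species, and the effects of species and collection cannot be told apart within these 4 libraries. The labels number the replicates but do not say whether they came from separate animals, so the p-values measure the spread between these libraries.

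The liver makes most of the proteins that circulate in blood plasma, and a small number of very abundant messenger RNAs for such secreted proteins can take up a large share of a liver library. It also carries out much of the body's sugar, fat and nitrogen metabolism and clears foreign compounds, functions whose genes are expressed far more in liver than in kidney or brain. Beavers are large, semiaquatic plant eaters and long-lived for rodents, while Siberian chipmunks are small ground squirrels that hibernate.

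The table lists 16816 genes by mouse Ensembl ID and pairs no ID with a gene name. None of the IDs could be matched to a symbol, so genes are described by ID, by level and by the organ in which they are enriched in baboon, and their functions are not stated. For the same reason the hepatocyte and other cell type markers could not be read by name. In bulk tissue, fewer cells of a type and less RNA per cell cannot be told apart, and this holds for every difference below.

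The beaver livers had total counts of 21.6 M and 23.0 M, against 14.6 M and 22.3 M in the chipmunk livers (M, mega). Low counts were mostly even numbers, so that a deposited count probably stands for 1 read of a pair. A level of at least 1 CPM, a unit in which the counts of a library are scaled to the same total, was reached by 10778 and 10680 genes in the beaver livers and by 10631 and 10498 genes in the chipmunk livers. The species thus had similar numbers of detected genes. Spearman correlations across 14371 genes were 0.974 between the beaver livers and 0.979 between the chipmunk livers, and 0.836 to 0.841 between the species. With the livers of the other species, beaver correlated at medians of 0.715 (white-footed mouse) to 0.825 (long-tailed macaque) and chipmunk at 0.728 (white-footed mouse) to 0.833 (long-tailed macaque). These correlations are descriptions across genes that share library and depth, and genes are not independent replicates.

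The libraries were checked as livers with genes enriched in baboon organs. A gene was called organ-enriched when baboon had at least a log2 fold change of 2 for that organ over each of the other organs, with an adjusted p under 0.05 (edgeR). Of 13890 genes tested in baboon, 825 were liver-enriched (5.94%), 576 kidney-enriched (4.15%) and 1863 brain-enriched (13.4%). The liver-enriched genes held 58.7% and 58.5% of the counts in the beaver livers, and 39.7% and 46.3% in the chipmunk livers. In the 6 baboon livers they held 58.7% to 65.6%, in the 6 baboon kidneys 2.79% to 3.38% and in the 2 beaver brains 1.67% and 1.82%. Kidney-enriched genes held 0.637% and 0.642% in beaver liver and 0.495% and 0.449% in chipmunk liver, against 9.01% to 10.5% in baboon kidney. Brain-enriched genes held 0.934% and 0.854% in beaver liver and 1.07% and 0.897% in chipmunk liver, against 27.2% and 27.3% in beaver brain. In all 4 livers the liver-enriched genes held by far the highest share of the 3 classes.

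A single gene held much of the beaver counts and little of the chipmunk counts. ENSMUSG00000029368 held 26.6% and 24.7% of the counts in the beaver livers and was the most counted gene there. It held 0.114% and 0.0574% in the chipmunk livers, where it ranked 135th by mean share. The groups lay far apart, at 25.7% ± 1.28 in beaver and 0.0857% ± 0.0399 in chipmunk (SD, n = 2 each), and the fitted log2 fold change was 8.41 ± 0.95 (SE; adjusted p = 0.00317 by edgeR). Without this gene, the liver-enriched genes held 43.7% and 44.9% of the remaining counts in beaver liver, and 39.7% and 46.3% in chipmunk liver, so that the ranges of the 2 species overlapped. In the collection that holds beaver, the gene also held 12.4% to 24.3% in the 6 baboon livers and 11.5% to 20.1% in the 6 macaque livers. In the collection that holds chipmunk, it held 18.1% in white-footed mouse and 29.7% in bear. It held 0.0286% in tube-nosed bat and 0.0111% and 0.00178% in sugar glider. The gene was thus high in all 3 species of the beaver's collection and in 2 of the 5 species of the chipmunk's collection. Whether the species with low values express the gene little, or their reads were not assigned to this ID, was not tested.

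With its most counted gene included, beaver liver had its counts concentrated in fewer genes. The 10 most counted genes held 36.7% and 35.5% in beaver and 15.7% and 21.5% in chipmunk, and the 100 most counted held 57.2% and 56.7% in beaver against 45.0% and 52.3% in chipmunk. The number of genes needed for 50% of the counts was 48 and 52 in the beaver livers, against 150 and 81 in the chipmunk livers. At 90% of the counts it was 2703 and 2650 in beaver and 3139 and 2800 in chipmunk. The chipmunk libraries differed from each other by more than the beaver libraries did on all 4 of these measures. All of them include ENSMUSG00000029368, which alone held 26.6% and 24.7% in beaver, more than the 10 most counted genes together held in chipmunk. From 1 to 10 genes, the summed share rose from 26.6% to 36.7% and from 24.7% to 35.5% in the beaver livers. In the chipmunk livers it rose from 3.05% to 15.7% and from 4.22% to 21.5%. As shares of all counts, the rise was thus smaller in both beaver livers. The measures were not recomputed without the gene, and they do not show that the other genes were more concentrated in beaver.

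**Figure D1:**
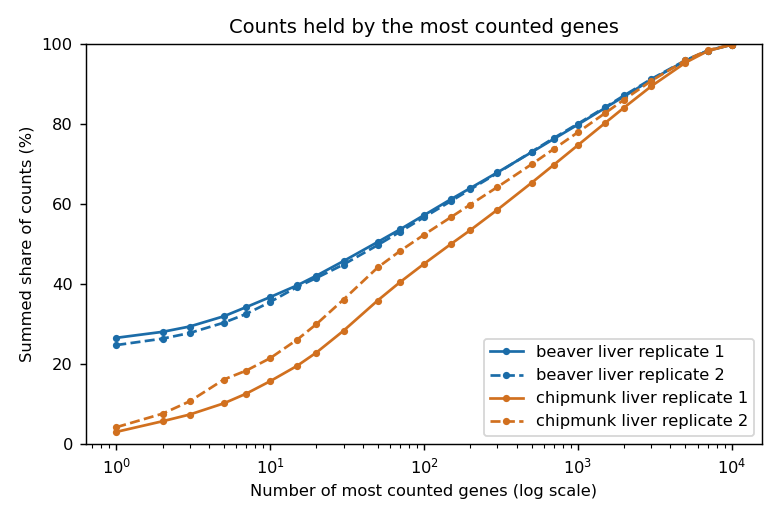
Summed share of counts (%, vertical axis) held by the most counted genes of each library (number of genes, log axis), for 2 beaver livers (blue) and 2 chipmunk livers (orange). The beaver lines start at 26.6% and 24.7% with 1 gene, the chipmunk lines at 3.05% and 4.22%, and the 4 lines come together beyond about 1000 genes.

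Of the 10 most counted genes of each species, 2 were shared, and of the 100 most counted, 53 were shared. The most counted gene of chipmunk liver, ENSMUSG00000024164, held 1.23% and 1.09% of the counts in the beaver livers, and 2.66% and 4.22% in the chipmunk livers. It ranked sixth in beaver. The groups did not overlap, but the difference missed the threshold, at a fitted log2 fold change of -1.45 ± 0.50 (SE; adjusted p = 0.0638 by edgeR). Whether it is called depends on the fit: with all 21 livers in 1 model its adjusted p was 0.00169 at a log2 fold change of -1.44, and over 14 alternatives the adjusted p ran between 0.000181 and 0.253. ENSMUSG00000031722 was among the 5 most counted genes of both species. It held 1.49% and 1.35% in the beaver livers and 0.998% and 2.52% in the chipmunk livers, with both beaver values lying between the chipmunk values. The log2 fold change was -0.20 with a 95% interval of -1.71 to 1.31. These 2 genes were singled out because rank in the library, not change, was of interest.

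In all, 5510 of 11984 genes tested differed between beaver and chipmunk liver, which is 46.0% (edgeR quasi-likelihood test, Benjamini-Hochberg adjusted p under 0.05). Of these, 2780 were higher in beaver (23.2% of genes tested) and 2730 were lower (22.8%). The differences were large: 4392 called genes, 36.6% of those tested, differed at least 2-fold, 2257 of them higher and 2135 lower in beaver. At least 16-fold differences were estimated for 968 genes, 512 higher and 456 lower. The median log2 fold change was 0.01, and the median absolute log2 fold change was 0.85 over all genes and 1.70 over called genes. Among called genes, 372 had a count of 0 in both libraries of a species, so that their fitted fold depends on a prior count. With only genes averaging at least 1 CPM in each species, a limit chosen after the data were seen, 3021 of 9815 were called with at least a 2-fold difference. Between replicates of a species the median absolute log2 difference was 0.29 in beaver and 0.28 in chipmunk. Of genes averaging at least 20 CPM in their species, 223 of 4478 (4.98%) differed over 2-fold between the beaver livers and 199 of 4872 (4.08%) between the chipmunk livers. Where 1 library is left out, the fit takes its spread from the other species alone. The number of calls then fell further without a chipmunk library than without a beaver library. It was 3954 without beaver liver replicate 1 and 4007 without replicate 2, against 3104 without chipmunk liver replicate 1 and 3087 without replicate 2. No called gene changed direction in any of these 4 fits.

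Similar levels could also be shown for part of the genes. For 2644 genes, 22.1% of those tested, the 95% interval of the log2 fold change lay wholly within a 2-fold difference in either direction. Of these, 35 were also called, with small differences. The remaining 3865 genes were neither called nor shown to lie within 2-fold, so that no statement on them is possible with 2 libraries per species.

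**Figure D2:**
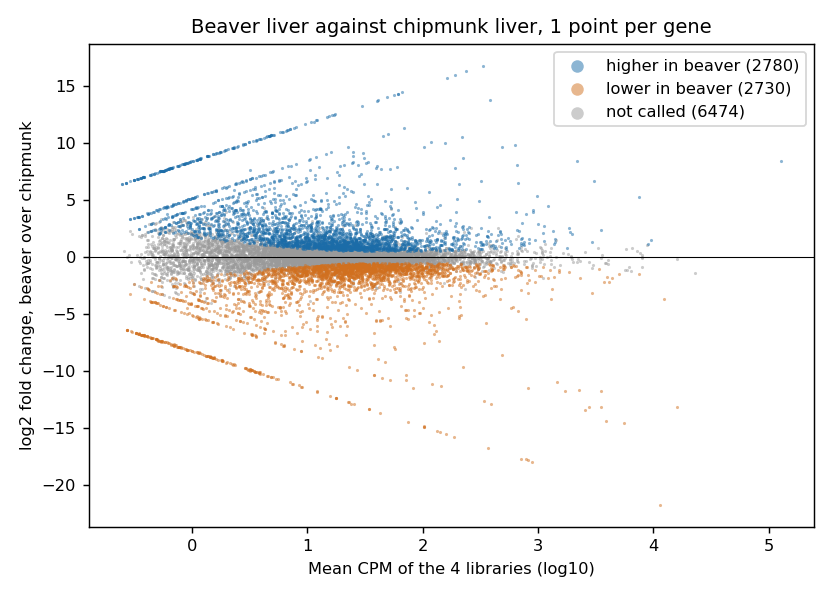
log2 fold change of beaver over chipmunk liver (vertical axis) against the mean CPM of the 4 libraries (log10, horizontal axis), 1 point per tested gene. The 2780 genes higher in beaver (blue) and the 2730 lower in beaver (orange) occur at every level, and the straight lines at the edges are genes with a count of 0, or very few counts, in a species, whose fitted fold change depends on a prior count.

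Calls occurred at similar rates across expression levels, and the share of large differences varied more. Genes averaging 1 to 10 CPM over the 4 libraries were called in 42.6% of 4073 cases, those at 10 to 100 CPM in 47.8% of 5888 and those at 100 to 1000 CPM in 49.9% of 1049. Of the 111 genes at 1000 CPM or more, 20 were higher and 32 lower in beaver. Calls of at least 2-fold made up 41.0% of the genes at 1 to 10 CPM, 32.4% at 10 to 100 CPM, 36.1% at 100 to 1000 CPM and 45.0% of the genes at 1000 CPM or more. Below 1 CPM, 44.6% of 863 genes were called, and all 385 of these calls were of at least 2-fold. A gene at that level may have passed the filter on low counts only through the species where it is high. Such a gene had to differ, so the values of this bin follow in part from the filter. The lowest share of calls of at least 2-fold was thus that of the genes at 10 to 100 CPM, and over all genes tested it was 36.6%. CPM is not scaled to gene length, so these bins rank genes by counts.

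The extremes were genes close to the detection limit in a species and abundant in the other. ENSMUSG00000003555 had the largest log2 fold change among genes counted in all 4 libraries and averaging at least 20 CPM in a species. It had 383 and 491 CPM in the beaver livers and 0.137 and 0.449 CPM in the chipmunk livers (2 and 10 counts). The fitted log2 fold change was 10.53 ± 0.55 (SE; adjusted p = 0.000726 by edgeR), and it lay between 9.96 and 11.84 over 14 alternatives. In beaver brain the gene had 0.382 and 0.131 CPM. The 6 baboon livers had 465 CPM ± 149 and the 6 macaque livers 350.5 ± 126 (SD), whereas bear had 0.802 CPM, tube-nosed bat 1.39, and white-footed mouse and both sugar gliders no count. The gene was therefore high in all species of the beaver's collection and near or at 0 in all species of the chipmunk's collection.

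At the other end, ENSMUSG00000064358 had the most negative log2 fold change under the same limits, a count in all 4 libraries and at least 20 CPM in a species. It had 0.0926 and 0.697 CPM in the beaver livers (2 and 16 counts), against 12446 and 9891 CPM in the chipmunk livers. The fitted log2 fold change was -14.58 ± 1.01 (SE; adjusted p = 0.0011 by edgeR). The beaver brains had 14.2 and 1.31 CPM. Baboon and macaque livers were also near 0, with at most 0.238 and 0.183 CPM, while white-footed mouse had 27009 CPM, bear 10139, tube-nosed bat 142 and the sugar gliders 84.7 and 101.7. ENSMUSG00000064351 was the most counted chipmunk gene among those lower in beaver. It had 1.20 and 4.96 CPM in the beaver livers and 30532 and 33917 CPM in the chipmunk livers, and the fitted log2 fold change was -13.19 ± 1.12 (SE; adjusted p = 0.00178 by edgeR). The beaver brains had 45.0 and 5.64 CPM. In the same collection as beaver, the baboon livers had 6227 CPM ± 1396 and the macaque livers 0.130 ± 0.15 (SD, n = 6 each). The 5 livers of the other species in the chipmunk's collection had between 3948 and 64921 CPM. The sources used here do not say how beaver or chipmunk reads came to be counted under mouse IDs. Whether a gene model is missing or cut short in a species, or the gene is not expressed in it, was not tested.

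**Figure D3:**
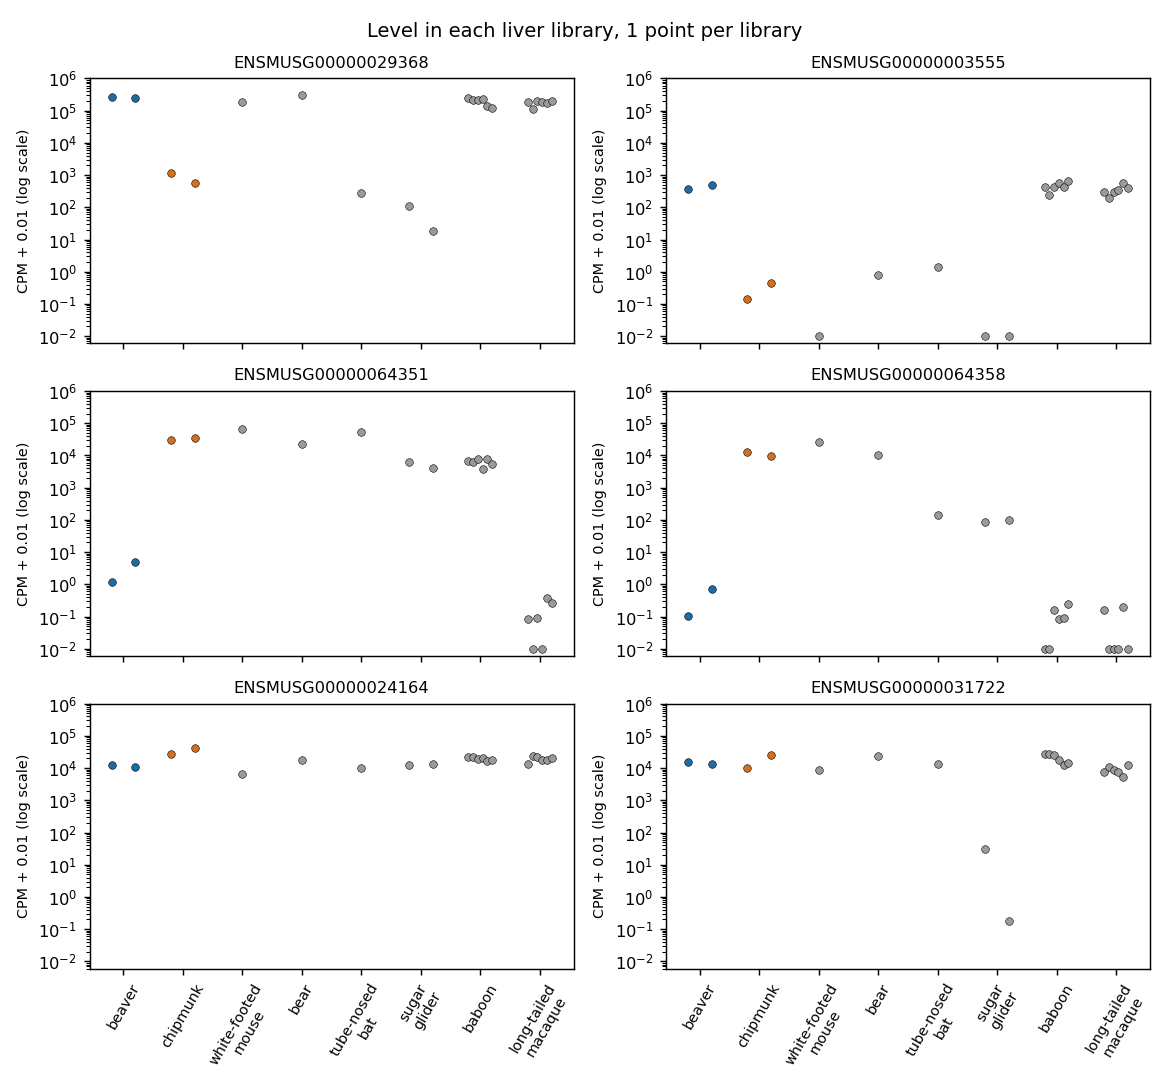
Level of the 6 genes named in the text (CPM + 0.01, log axis) in every liver library of the 8 species, 1 point per library, with beaver in blue, chipmunk in orange and the other species in grey. The 2 genes in the bottom row lie within about the same decade in beaver and chipmunk, while those above them differ by a log2 fold change of 8.41 or more in either direction.

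Genes enriched in liver went both ways. Of the 825 genes enriched in baboon liver, 723 were tested between beaver and chipmunk: 188 were higher in beaver (26.0%, against 23.2% of all genes tested), 173 were lower (23.9%, against 22.8%) and 362 were not called. Their median log2 fold change was 0.06, against 0.01 over all genes tested, and their median absolute log2 fold change was 1.17, against 0.85. Members called in each direction were thus of similar number. They were measured at a median of 41.4 CPM in beaver liver and 53.1 CPM in chipmunk liver, against 12.3 and 13.6 CPM over all genes tested. Of the 723, 326 were called with at least a 2-fold difference, against 4392 of all 11984 genes tested (36.6%).

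Genes enriched in the other organs were mostly low in both livers and were also called in both directions. Of 308 kidney-enriched genes tested, 91 were higher in beaver (29.5%), 83 were lower (26.9%) and 134 were not called, with a median log2 fold change of 0.15. Of 897 brain-enriched genes, 255 were higher (28.4%), 228 lower (25.4%) and 414 not called, with a median of 0.14. Over all genes tested, 23.2% were higher and 22.8% lower. The median levels of the 2 classes in the 2 species lay between 1.99 and 2.15 CPM. With only genes averaging at least 1 CPM in each species, 36 kidney-enriched genes were higher and 31 lower of 132 tested. Of 407 brain-enriched genes, 85 were then higher and 84 lower. Over all genes under the same limit, 2093 were higher and 2072 lower of 9815. The number of calls in both classes fell when a library of either species was left out, as did the number over all genes tested. It fell furthest without a chipmunk library. A gene that passed the filter on low counts only through the species where it is high had to differ, so these shares describe the tested genes, not all organ-enriched genes. The classes were defined after the data had been seen, in libraries that the comparison does not use.

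**Figure D4:**
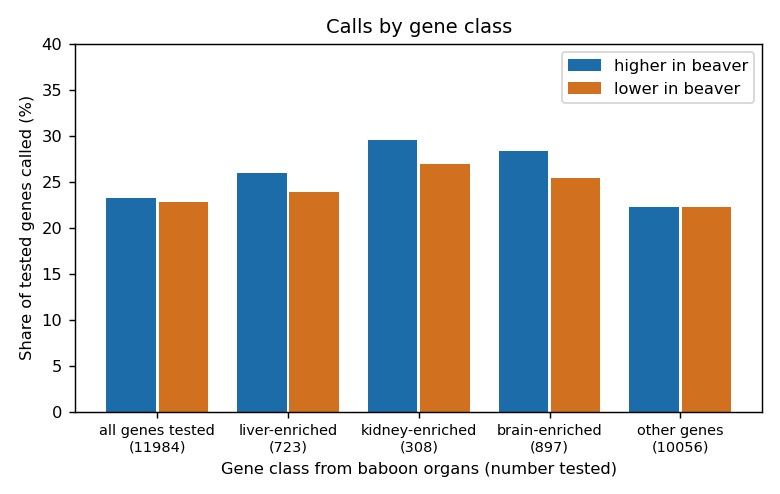
Share of tested genes (%, vertical axis) called higher (blue) or lower (orange) in beaver than in chipmunk liver, for all genes and for classes of genes enriched in an organ of baboon, with the number tested under each class. The shares higher and lower lie close to each other in every class, with 26.0% and 23.9% for liver-enriched genes.

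Some genes abundant in a species were near absent in the other. Below 0.5 CPM in both beaver livers and averaging at least 20 CPM in chipmunk liver were 57 genes, with a median of 75.0 CPM in chipmunk. Together they held 3.62% of the chipmunk counts, most of it in the highest gene, which averaged 22920 CPM. Of the 57 genes, 27 had no count in either beaver liver, and all 57 were called. Below 0.5 CPM in both chipmunk livers and averaging at least 20 CPM in beaver liver were 53 genes. They had a median of 50.1 CPM and a highest mean of 770.6 CPM, and held 0.566% of the beaver counts. Of these, 23 had no count in either chipmunk liver, and 51 were tested and called. A count of 0 does not exclude a low level below the detection limit of a library. These limits were chosen after the values were seen. A gene that met them had to differ widely between the species, so the calls follow largely from the selection.

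Beaver brain showed which of the genes near absent from beaver liver were counted elsewhere in the animal. Of the 57 genes, 24 averaged at least 1 CPM in beaver brain, so that reads were assigned to them in beaver, and 27 were below 0.5 CPM in both brains as well. Chipmunk gave no other organ. The livers of the other 6 species gave a further comparison. Of the 57 genes near absent in beaver liver, 13 (22.8%) averaged at least 1 CPM in all 6 other species, 33 in at least 4 and 8 in none. Of the 53 near absent in chipmunk liver, 2 (3.77%) reached 1 CPM in all 6, 17 in at least 4 and 12 in none. Of all genes averaging at least 20 CPM in chipmunk liver, 1.17% were near absent in beaver liver, and of those at that level in beaver liver, 1.18% were near absent in chipmunk liver. Near absence in beaver liver held for 14 of 447 liver-enriched genes (3.13%), 2 of 36 kidney-enriched genes (5.56%) and 8 of 104 brain-enriched genes (7.69%). Near absence in chipmunk liver held for 7 of 442 liver-enriched (1.58%), 5 of 46 kidney-enriched (10.9%) and 8 of 89 brain-enriched genes (8.99%). Among all genes without a count in the beaver livers but counted in chipmunk liver, 1011 in number, 503 had a count in a beaver brain and 508 had none. The reverse set, counted in beaver liver and at 0 in both chipmunk livers, held 775 genes.

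The levels were next set against the 6 other species to see which side stood apart. Over all genes tested, beaver lay above the means of all 6 in 14.9% and below all of them in 8.14%, and chipmunk lay above in 13.7% and below in 8.09%. Of the 2780 genes called higher in beaver, beaver alone lay beyond the range of the other species in 984 (35.4%) and chipmunk alone lay below it in 409 (14.7%). Both were outside at opposite ends in 98 (3.53%), and neither in 1289 (46.4%). Of the 2730 genes called lower in beaver, beaver alone lay below the range in 463 (17%), chipmunk alone above it in 886 (32.5%), both in 63 (2.31%) and neither in 1318 (48.3%). In both directions the species with the higher level was the one outside the range more often than the species with the lower level, and over all genes tested both species lay above the range more often than below it. About as many genes stood apart in beaver (23.0% of genes tested) as in chipmunk (21.8%). The range comes from the species' means, 4 of which have only 1 or 2 libraries.

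**Figure D5:**
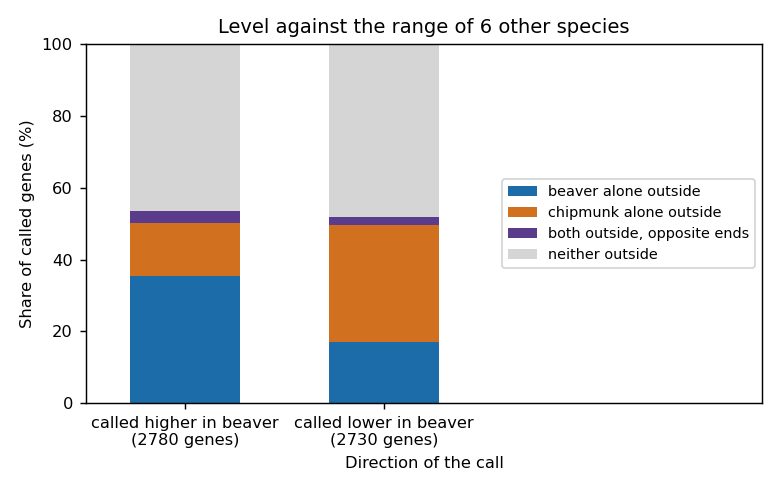
Share of called genes (%, vertical axis) by whether beaver, chipmunk, both or neither lay outside the range of the mean levels of 6 other species on the side of the call. Beaver alone was outside for 35.4% of the genes higher in beaver, and chipmunk alone for 32.5% of the genes lower in beaver.

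The collections were then compared in libraries that hold neither beaver nor chipmunk. The 12 primate livers (baboon and long-tailed macaque) were set against the 5 livers of white-footed mouse, bear, sugar glider and tube-nosed bat, with equal weight for each species. This contrast follows the same split of collections, and also that of primates from other mammals. It called 8586 of 14109 genes (60.9%), 5830 higher (41.3%) and 2756 lower (19.5%) in primates. The median log2 fold change was 0.48, or 0.34 with RLE scaling, so the excess of higher calls depends in part on the scaling. Of the genes tested in both fits, 2712 had been called higher in beaver than in chipmunk. In the primate contrast 1235 of these (45.5%) were higher and 531 (19.6%) lower. Of 2683 called lower in beaver, 1088 (40.6%) were higher in primates and 674 (25.1%) lower. Over all 11846 genes tested in both, the shares were 42.8% and 22.5%.

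The differences between beaver and chipmunk had the same direction as the collection split of the other species in 1909 of 3528 genes called in both contrasts (54.1%), and the log2 fold changes correlated with r = 0.07 (rho = 0.06) across genes, given as a description. Among the named genes, ENSMUSG00000003555 had a log2 fold change of 12.40 in the primate contrast, ENSMUSG00000029368 of 5.02, ENSMUSG00000064351 of -9.81 and ENSMUSG00000064358 of -14.16, each in the direction it had between beaver and chipmunk. ENSMUSG00000024164, lower in beaver by value, had 0.76.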

How the data were processed

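RNA from frozen livers had been extracted with a column kit, per the labels' protocols. The authors deposited 1 table of raw counts per gene ID, without normalization. STAR and featureCounts are named in the submitters' processing notes; the sources used here give no versions, builds or strandedness. All columns matched a sample by name, leaving 0 unmatched. Even numbers made up 95.3% to 98.5% of counts from 1 to 20 in the 4 livers.

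Counts were tested with edgeR 4.0.16 in R 4.3.3 (TMM factors, filterByExpr, quasi-likelihood F test, two-sided), fitting the 4 livers by species, with p adjusted over all genes tested. The standard error comes from the F statistic. The scripts were tested on simulated data. The alternatives were other scalings, filters, DESeq2 1.42.0, a joint fit of 21 livers, halved counts, left-out libraries and a replicate block. The rule for named genes took the largest log2 fold change per direction among called genes with a count in all 4 libraries and at least 20 CPM in a species, and the most counted genes of each species. Because 0 IDs could be paired with a symbol, its parts that need symbols, 41 gene lists and the alternative without mitochondrially encoded genes could not be used, and at most 2 IDs per direction are printed. Members, lists and limits were chosen with earlier results of these data known.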

Additional observations from a re-analysis of the deposited data

How the results depend on the processing

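The counts of called genes over all genes tested were within 1.5 times those reported under every alternative run, except when a chipmunk library was left out. Among the organ-enriched classes, kidney-enriched and brain-enriched counts moved further without a chipmunk library or with only genes at 1 CPM in each species, and brain-enriched genes higher in beaver also without beaver liver replicate 2 (169, against 255). With 1 library left out in turn, 3087 to 4007 genes were called, 1529 to 1991 of them higher in beaver and 1558 to 2016 lower. Such fits have 1 library in a species, which is assumed to vary like the other species. The joint fit of 21 livers called 5846 genes, and 4877 calls were shared, 88.5% of those reported and 83.4% of those of the joint fit. DESeq2 called 5714, sharing 5303. With only genes averaging at least 1 CPM in each species, chosen after the data were seen, 4165 of 9815 were called. Over all genes the median log2 fold change was 0.13 with upper-quartile factors and -0.15 with the library total alone, against 0.01 with TMM. The 4 named genes that were called kept direction and call in all alternatives that held them. ENSMUSG00000024164 passed the threshold in 6 of 14, and the cause was not tested. Same-numbered libraries come from different species and are not paired: the correlation of their deviations was 0.06, and the replicate block called 5093 genes. Each species has 2 libraries, with species, collection and gene models confounded.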
